A study of Mus musculus with 6 samples.

Results

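The 34 genes described here encode the protein folding machinery of the endoplasmic reticulum (ER) and the 2 stress programs that adjust it, the unfolded protein response and the integrated stress response. They were chosen by name, as ER chaperones, protein disulfide isomerases, degradation factors, stress sensors and targets of XBP1, ATF6 and ATF4. All 34 were among the 49585 gene IDs of the count table, and all 34 passed edgeR's filter on low counts, which left 15812 genes to test. By role they were 11 ER chaperones and co-chaperones, 4 protein disulfide isomerases, 4 genes of ER-associated degradation, 4 genes for the sensors and XBP1, 6 regulators of the ATF4 branch, 3 amino acid synthesis targets of ATF4 and 2 translocon genes.

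Proteins that enter the ER are folded by chaperones such as BiP and calreticulin and joined by disulfide bonds, and those that fail to fold are sent back to the cytosol for degradation. Unfolded protein activates the sensors IRE1, PERK and ATF6. IRE1 splices the mRNA of XBP1 into the form that encodes an active transcription factor, ATF6 is cut to release a transcription factor, and PERK phosphorylates the translation factor eIF2alpha. That phosphorylation, which other kinases can place in response to lack of amino acids or heme, slows general translation while it favours translation of ATF4, a transcription factor for amino acid synthesis and transport and for the stress factor CHOP. Secretory cells and granule-forming myeloid cells are known users of this machinery. Counts per gene, as used here, hold the sum of spliced and unspliced Xbp1 mRNA and do not report splicing, translation or phosphorylation.

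The libraries came from mouse acute myeloid leukemia driven by the fusion KMT2A-MLLT3, taken from the marrow of moribund mice, transduced with DOT1L, sorted by its expression and read as paired RNA-seq of 150 bp 3 days after the sort. Cells were grown in DMEM with serum and mouse interleukin 3, interleukin 6 and stem cell factor, and all 6 libraries carry the fusion. The 3 groups are labelled NT, DOT1L Low and DOT1L High (below NT, Low and High), each with 1 library of leukemia K3117 and 1 of K3174. NT is not spelled out, and neither its transduction and sort nor the promoter and species of the introduced DOT1L are given. That a K number stands for 1 leukemia is read from the library titles, and nothing says that the K numbers are separate mice, so p-values measure the spread between these libraries, which may be technical.

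Libraries held between 22908445 and 33265848 counts. Levels are CPM, counts divided by library sizes that edgeR's TMM method scales, and fold changes are log2 values from edgeR's quasi-likelihood fit with the leukemia as a block, called at a Benjamini-Hochberg adjusted p under 0.05 over all 15812 genes. Dot1l, the gene that defines the labels, was counted at 127.8, 183.7 and 149.8 CPM in NT, Low and High of K3117 and at 158.0, 152.0 and 136.4 CPM in K3174, which is not the order of the labels, so groups are named by their labels only. Of 8 myeloid leukemia marker genes, among them Hoxa9, Meis1 and Ptprc, none was at 0, and their summed level was between 1336 and 1530 CPM in each library, while 3 were called higher and 4 lower in High against NT. Ms4a1 of B cells, Cd3e, Cd8a and Trbc1 of T cells and Col1a2 and Cxcl12 of stroma had no count in any library. The 8 T and NK cell genes summed to 8.36, 24.4 and 43.1 CPM in NT, Low and High of K3117 and to 22.3, 44.8 and 54.9 CPM in K3174, nearly all of it Nkg7, the 1 gene of that list tested, which was called higher in High against NT (log2 1.87). The 6 stromal and endothelial genes summed to between 114.7 and 213.2 CPM, nearly all of it Pecam1, with 0 of 2 tested called by edgeR and 0 at an unadjusted p under 0.05.

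In High against NT, 3 of the 34 genes passed the test. Xbp1 and Edem1 were higher and Psat1 was lower, a share of 8.82% of the 34 against 17.3% of all genes tested (10.0% called higher and 7.32% called lower). The count was 0 without the leukemia as a replicate block, where 493 of all 15812 genes were called. Leaving out the K3117 NT, K3117 High or K3174 High library also moved it, as it moved the count over all genes. The median log2 fold change was 0.08 over the 34 and -0.01 over all genes, and the 34 values ran from -0.61 to 0.59. The levels also spread little across libraries. In 29 of the 34 genes the highest of the 6 libraries was under 1.5 times the lowest, against 44.7% of all genes tested. Well-counted genes vary less, and among genes with a mean of at least 100 CPM the figures were 22 of 24 against 78.9%, while 3 of the 24 were called against 16.6%. In these bulk samples, fewer cells of a type and less RNA per cell cannot be told apart.

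**Figure D1:**
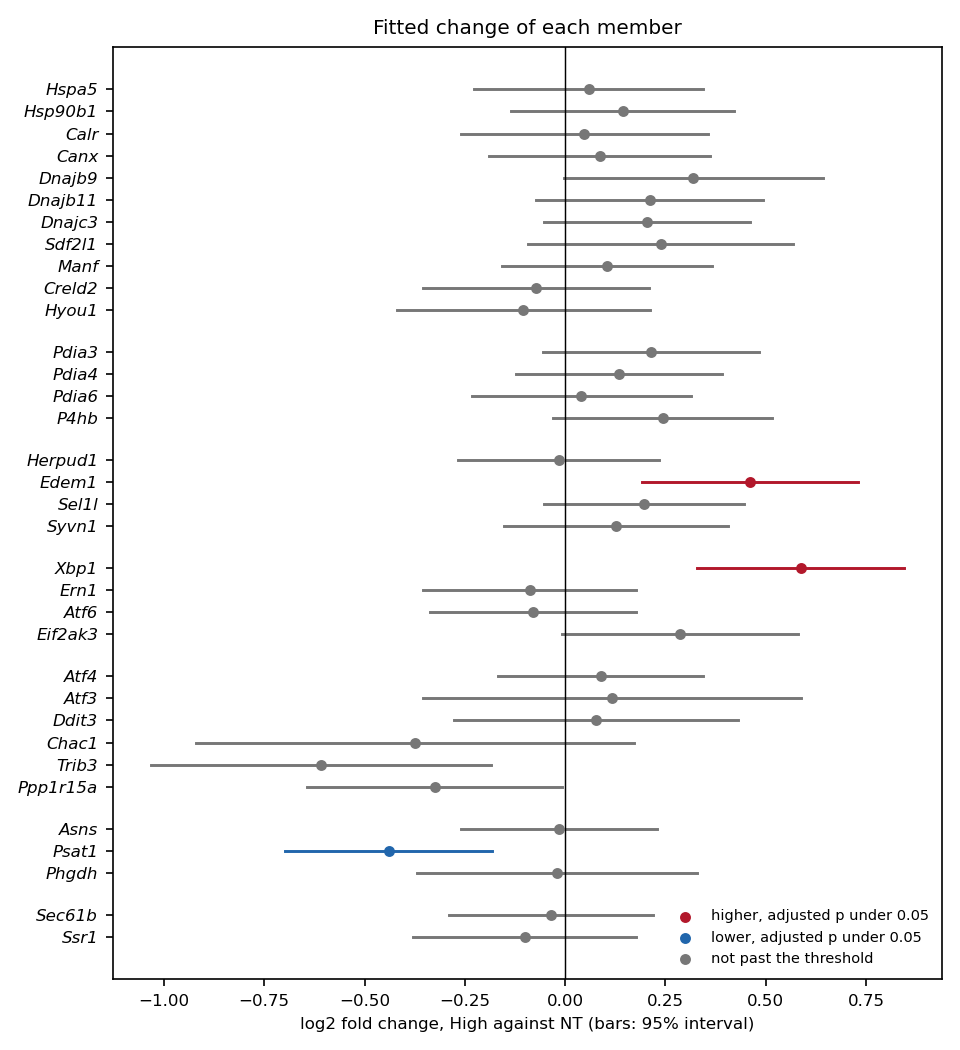
Fitted log2 fold change of each of the 34 genes for High against NT, with points for the fitted value and bars for its 95% interval, grouped by role from chaperones at the top to the translocon at the bottom. Xbp1 (0.59) and Edem1 (0.46) are past the threshold above 0 and Psat1 (-0.44) below it, and Trib3 (-0.61) has the farthest value but a wide bar.

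Xbp1, which encodes the transcription factor that IRE1 activates by splicing, was the gene with the smallest p of the set (ENSMUSG00000020484.18, GRCm38 chromosome 11, 5520659 to 5525893, plus strand, 4 exons). In K3117 the levels of NT, Low and High were 210.2, 255.2 and 292.0 CPM, and in K3174 they were 182.9, 223.8 and 296.8 CPM. The groups did not overlap, with both NT libraries lowest, both Low libraries between and both High libraries highest. High against NT gave 1.503-fold (log2 0.59 ± 0.12 SE, 95% interval of the fold 1.26 to 1.80, edgeR adjusted p = 0.0047), from 196.6 ± 19.3 CPM to 294.4 ± 3.44 CPM (SD, n = 2). Low against NT gave 0.29 ± 0.12 (edgeR adjusted p = 0.30) and High against Low 0.30 ± 0.12 (edgeR adjusted p = 0.21), so neither step passed by itself, while Low and High averaged were above NT (0.44 ± 0.10, edgeR adjusted p = 0.016), a call lost without the block (0.12), K3117 Low (0.069) or K3174 High (0.073). The High against NT call was lost without the K3174 High library (0.48, edgeR adjusted p = 0.11) and without the leukemia as a replicate block (0.58, edgeR adjusted p = 0.058).

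Edem1, a lectin-like factor that hands misfolded glycoproteins to ER-associated degradation and a known target of XBP1, followed the same order (chromosome 6, 108828641 to 108859356, plus strand). K3117 had 381.0, 424.8 and 473.3 CPM in NT, Low and High, and K3174 had 263.7, 349.0 and 403.5 CPM. Each leukemia rose in steps from its own start, and K3174 NT was the lowest library, so both High libraries were above both NT libraries while the Low libraries overlapped the 2 other groups. The fold change was 1.38 (log2 0.46 ± 0.12, edgeR adjusted p = 0.023), and Low and High averaged against NT gave 0.37 ± 0.11 (edgeR adjusted p = 0.044). The averaged call was lost without the block (0.42), with library sizes alone (0.067), upper quartile factors (0.087) or a minimum mean of 5 CPM (0.056), and without K3117 Low (0.094), K3174 NT (0.20), K3174 Low (0.16) or K3174 High (0.15). The High against NT call was lost without the block (edgeR adjusted p = 0.29), with upper quartile scaling (0.058) and without K3117 High (0.051), K3174 NT (0.063) or K3174 High (0.28). With library sizes alone it held (0.041).

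Psat1, the phosphoserine aminotransferase of serine synthesis and a target of ATF4, was the called gene in the other direction (chromosome 19, 15904678 to 15947337, minus strand). It was counted at 647.2, 569.9 and 505.6 CPM in NT, Low and High of K3117 and at 723.1, 611.6 and 502.7 CPM in K3174. All 3 groups were apart, with NT highest and High lowest in both leukemias. Its level in High was 1.36-fold lower than in NT (log2 -0.44 ± 0.12, edgeR adjusted p = 0.024), from 685.1 ± 53.7 to 504.1 ± 2.07 CPM (SD, n = 2). Without the block it had an adjusted p of 0.088, without K3117 High 0.067 and without K3174 High 0.30, all in edgeR. Xbp1, Edem1 and Psat1 share no exon with another annotated gene.

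**Figure D2:**
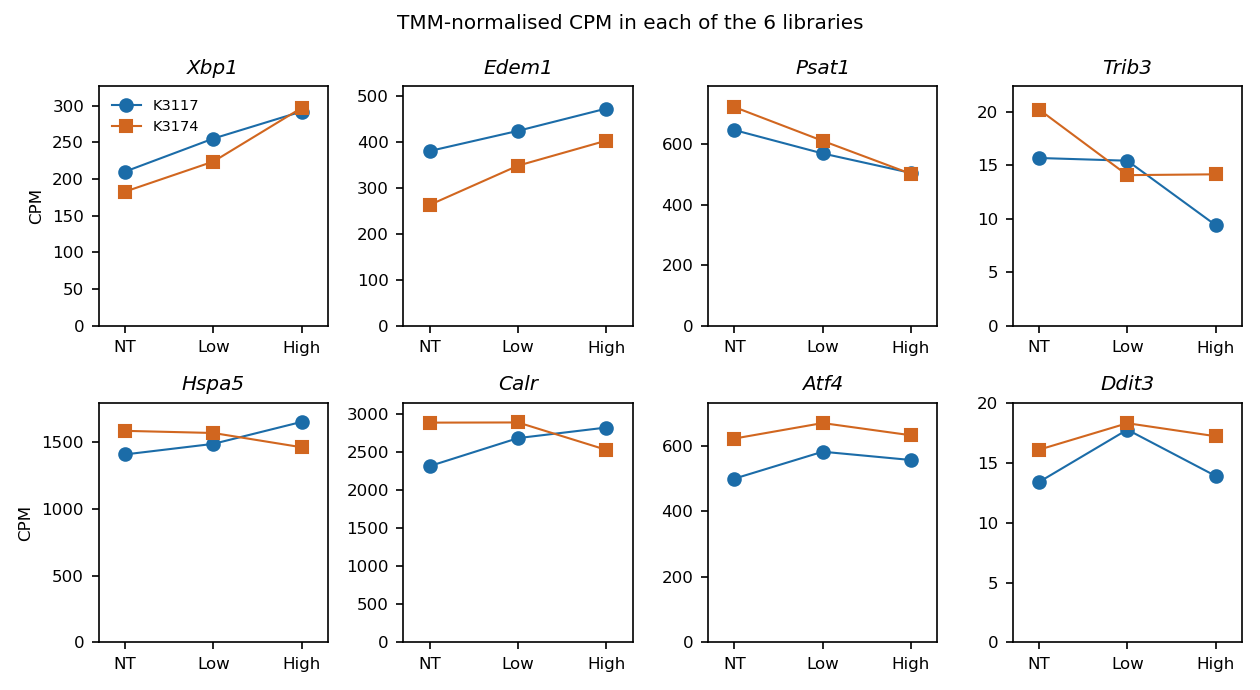
TMM-normalised CPM of 8 of the genes in NT, Low and High, with 1 line per leukemia (circles K3117, squares K3174) and every vertical axis from 0. Xbp1 and Edem1 climb in both leukemias, Psat1 descends in both, Trib3 is highest in both NT libraries, and Hspa5 and Calr move in opposite directions between NT and High.

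Summed levels of primary granule and of late neutrophil genes had the order NT, Low, High within each leukemia, as Xbp1 did. In both lists both High sums were above both NT sums, while the Low sums overlapped those of NT or High. Not every gene had that order. In Low against NT, 3 of 12 late neutrophil genes tested were below 0. In High against Low, 1 of 6 primary granule genes was below 0. The summed level of 6 primary granule genes, 5 of them called higher, was 1326, 3420 and 4722 CPM in NT, Low and High of K3117 and 2794, 6076 and 6298 CPM in K3174. The summed level of 13 late neutrophil genes, 11 of 12 tested called higher and none at 0 in every library, was 22.6, 108.1 and 1582 CPM in K3117 and 153.9, 1317 and 7271 CPM in K3174. Mast cell and basophil genes, 5 of 7 tested called higher in High against NT, summed to 41.2, 90.4 and 379.3 CPM and to 119.3, 228.2 and 763.8 CPM. That sum was mostly Hdc, and in Low against NT 6 of the 7 genes were below 0, with a median of -0.34, 1 called lower and 1 higher. Not every list had that order. The 8 monocyte and macrophage genes summed to 1117, 802.4 and 2170 CPM in K3117 and to 419.9, 385.0 and 1172 CPM in K3174. Of these 8, 3 were called higher and 3 lower in High against NT. Erythroid and megakaryocyte sums were likewise lowest in Low and highest in High in each leukemia. The part of these genes in the change of the 3 genes was not tested.

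**Figure D3:**
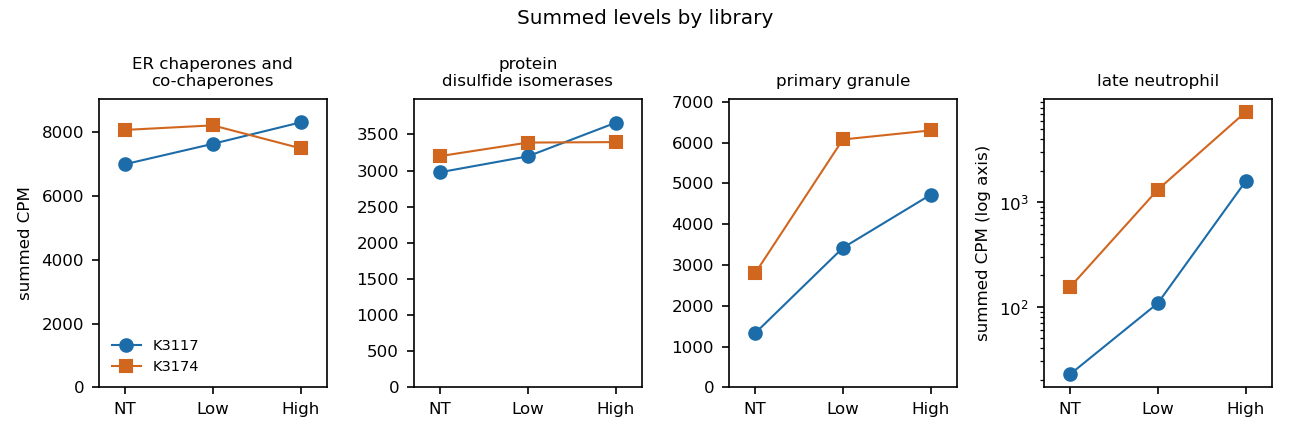
Summed CPM per library of the 11 ER chaperones, the 4 protein disulfide isomerases, 6 primary granule genes and 13 late neutrophil genes, with 1 line per leukemia and a log axis in the last panel only. The granule sums climb from NT to High in both leukemias, while the chaperone sum is higher in High than in NT in K3117 (8309 against 6997 CPM) and lower in High than in NT in K3174 (7495 against 8072 CPM).

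The order NT, Low, High was counted over all 34. Levels went upward in that order in both leukemias in 5 genes (P4hb, Edem1, Sel1l, Xbp1 and Eif2ak3), 14.7% against 12.7% of all genes tested, and Psat1 was the gene that fell in that order, 2.94% against 11.0%. Both High libraries lay above both NT libraries in 11 genes (32.4%), against 25.3% of all genes, and below both in Trib3, Ppp1r15a and Psat1 (8.82%), also against 25.3%. In the other 20 genes High and NT overlapped. These shares are counts of order with no test, and those for the upward order are near the background.

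The ER chaperones held some of the highest levels of the 34, and none of them passed a test between the groups. Per kilobase of exon, Calr, a calcium-binding lectin chaperone, had the highest mean level of all 34 (934 RPKM, above 99.9% of the genes tested). Hspa5, the HSP70 chaperone BiP, had a mean of 361 RPKM, Canx, the membrane-bound relative of calreticulin, 245 RPKM, and Hsp90b1, the ER form of HSP90, 239 RPKM. Dnajb9, a co-chaperone of BiP, was the least abundant chaperone at 14.1 RPKM.

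Promoters of these genes carry a known element, the ER stress response element (ERSE), on which NF-Y binds CCAAT and ATF6 binds CCACG with 9 bases between them. RefSeq promoter windows of GRCm38.p6, 250 bases before to 50 after each start, were found for 31 of the 34 genes (not for Atf6, Hyou1 and Manf) and searched on both strands. The element was in 8 of the 31 windows (25.8%), against 0.137% of 27025 genes with a window, and in 6 of 9 chaperone windows. The matches are shown because ER chaperone genes are known to be induced through this element. Of the 31 windows 14 hold any of the motifs searched here, and those of Xbp1, Edem1 and Psat1, like those of the chaperones Dnajb9 and Sdf2l1, hold none. Each line gives the gene's strand 5′ to 3′ with 5 flanking bases, and capitals mark the fixed letters of the element, which reads as CGTGG before ATTGG where it lies on the opposite strand.
Hspa5, chr2:34772020-34772048, plus strand: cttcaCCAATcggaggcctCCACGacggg
Hsp90b1 distal, chr10:86705633-86705661, minus strand: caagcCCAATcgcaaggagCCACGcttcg
Hsp90b1 proximal, chr10:86705528-86705556, minus strand: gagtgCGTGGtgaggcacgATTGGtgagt
Calr, chr8:84847070-84847098, minus strand: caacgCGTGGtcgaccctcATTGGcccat
Canx, chr11:50325795-50325823, minus strand: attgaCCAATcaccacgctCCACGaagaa
Dnajc3, chr14:118937822-118937850, plus strand: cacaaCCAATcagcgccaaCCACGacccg
Creld2, chr15:88819515-88819543, plus strand: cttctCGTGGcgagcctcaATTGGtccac
Pdia6, chr12:17266486-17266514, plus strand: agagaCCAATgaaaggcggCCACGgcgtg
Syvn1, chr19:6046527-6046555, plus strand: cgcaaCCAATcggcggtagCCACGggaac

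Relative to the start of transcription, the first base shown lies between -217 (the distal match of Hsp90b1) and -49 (Syvn1), and Hspa5's stretch also lies in an exon of the GENCODE annotation. None of the 8 genes was called in High against NT by edgeR, DESeq2 or limma-voom, and 0 of 8 had an unadjusted edgeR p under 0.05. Their log2 fold changes ran from -0.07 to 0.20 with a median of 0.07. Over the whole genome 17 tested genes held the element, these 8 among them. By any of the 3 tools 0 of the 17 were called, against 17.3% of all genes by edgeR, with 1 at an unadjusted edgeR p under 0.05. A match describes letters in a window and is not evidence of binding.

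Hspa5 was counted at 1407, 1486 and 1650 CPM in NT, Low and High of K3117 and at 1583, 1567 and 1460 CPM in K3174. The groups overlapped, since High was the highest library of K3117 and the lowest of K3174. High against NT gave 0.06 ± 0.13 (edgeR adjusted p = 0.83), with a 95% interval of the fold from 0.855 to 1.27. Calr did the same, at 2319, 2687 and 2825 CPM in K3117 and 2890, 2892 and 2533 CPM in K3174, with 0.05 ± 0.14 (edgeR adjusted p = 0.87). Of the 11 chaperones, 0 passed in any of the 3 comparisons of the labels by edgeR, DESeq2 or limma-voom, and 0 had an unadjusted edgeR p under 0.05 in High against NT or High against Low.

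Across the chaperones, the direction depended on the leukemia. In K3117 all 11 were higher in High than in NT, with a median difference of 0.23 in log2 CPM, and in K3174 3 of 11 were (Hsp90b1, Dnajb9 and Dnajc3), with a median of -0.05. With library sizes alone or upper quartile factors the counts were 10 and 3 of 11. Sdf2l1, a component of the BiP complex, had the largest upward difference of the 34 in K3117 (0.55) and -0.06 in K3174. Hyou1, a large HSP70 relative that exchanges nucleotide on BiP, had 0.18 in K3117 and -0.38 in K3174. Without the K3174 NT library, Sdf2l1 (edgeR adjusted p = 0.0018) and Dnajb11, a BiP co-chaperone (0.028), passed as higher in High. Without the K3117 NT library, Dnajb9 passed as higher (0.0099) and Hyou1 as lower (0.038).

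**Figure D4:**
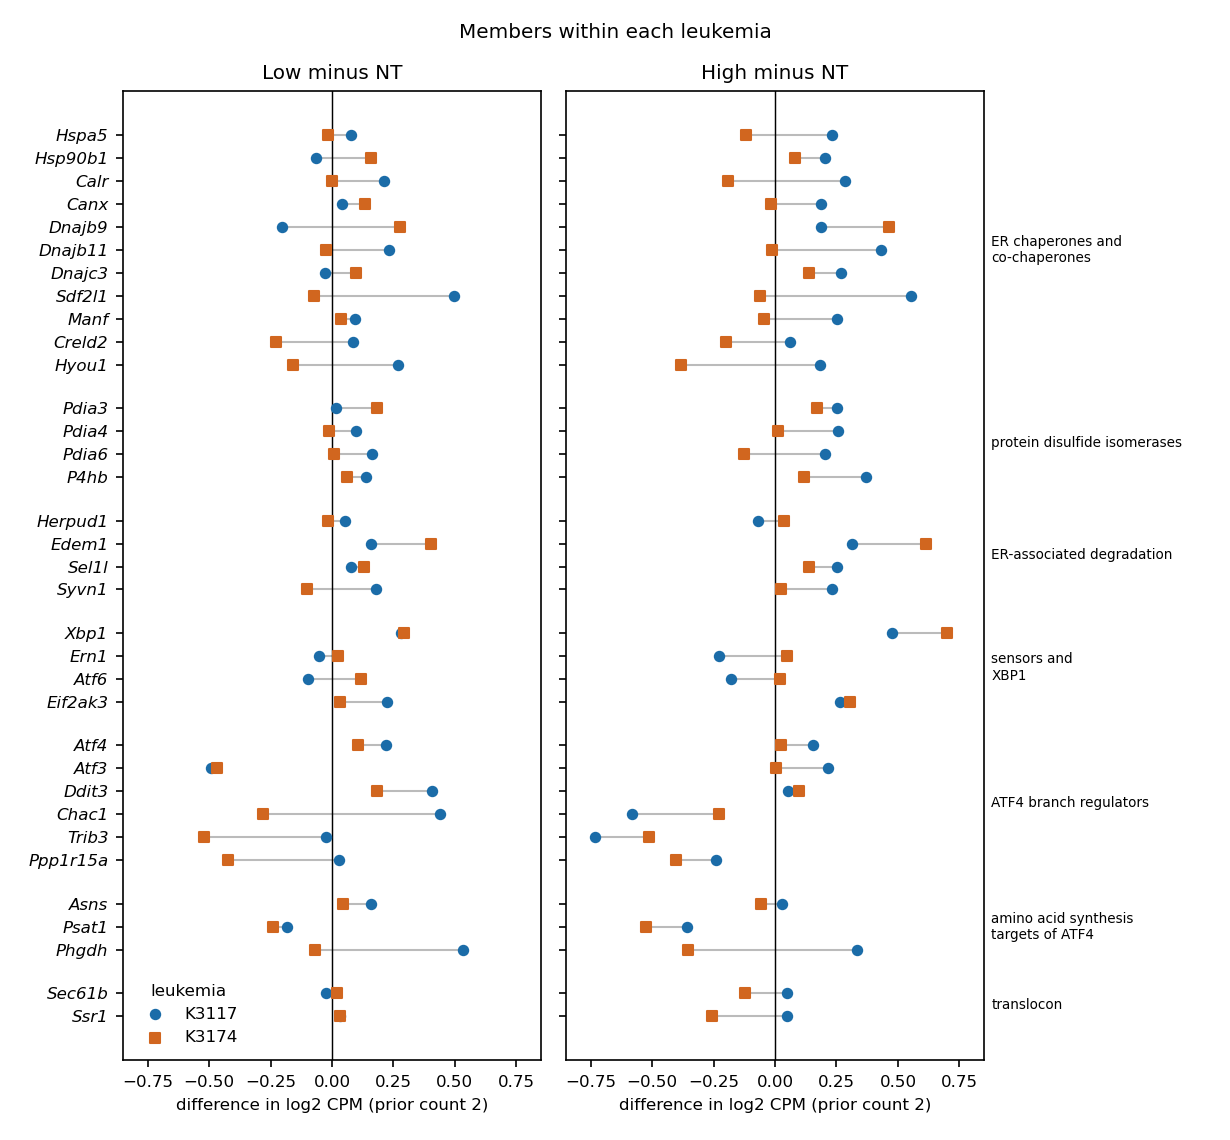
Difference in log2 CPM between Low and NT (left) and High and NT (right) within each leukemia for all 34 genes, circles for K3117 and squares for K3174, joined by a grey line. In the right panel all 11 chaperone circles are right of 0 and 8 of the 11 squares left of it, while Xbp1 and Edem1 have both marks to the right and Psat1 and Trib3 both to the left.

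Over all 34 genes, 27 were higher in High than in NT in K3117 and 17 in K3174, against 48.6% and 49.8% of all genes tested. With library sizes alone the counts were 22 and 13, and with upper quartile factors, which move the median of all genes from -0.01 to -0.11, they were 22 and 10. Both leukemias agreed in sign for 14 genes upward and 4 downward, and 16 had opposite signs (47.1%, against 34.2% of all genes). K3117 NT held the lowest level of 15 of the 34 genes, against 18.3% of all genes, and K3117 High the highest of 14, against 13.7%. The sum over the 34 genes was 13930, 15093 and 16153 CPM in NT, Low and High of K3117 and 15495, 15905 and 14920 CPM in K3174. The difference between the leukemias' responses has no test here, with 1 library for each leukemia and label.

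The protein disulfide isomerases, which form and reshuffle disulfide bonds, had fitted values above 0 in all 4 genes (0.04 to 0.24, median 0.17), or in 3 of 4 with library sizes alone or upper quartile factors. None of the 4 passed in edgeR, DESeq2 or limma-voom, and 0 had an unadjusted edgeR p under 0.05. P4hb, also a subunit of collagen prolyl hydroxylase, was the most counted, at 1331, 1464 and 1719 CPM in K3117 and 1483, 1548 and 1608 CPM in K3174. Its levels had the order NT, Low, High in each leukemia, and both High libraries were above both NT libraries. High against NT gave 0.24 ± 0.12 (edgeR adjusted p = 0.23). Pdia3, the partner of calnexin and calreticulin, had 0.21 ± 0.12 (edgeR adjusted p = 0.29), with 899 ± 3.54 CPM in NT and 1042 ± 38.5 CPM in High (SD, n = 2). Pdia4 and Pdia6 had 0.13 and 0.04.

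Among the genes of ER-associated degradation other than Edem1, Sel1l, the scaffold of the ubiquitin ligase complex, had 0.20 ± 0.11 (edgeR adjusted p = 0.29), from 232.0 ± 3.18 to 266.0 ± 18.2 CPM (SD, n = 2). Syvn1, the ubiquitin ligase of that complex, had 0.13 and Herpud1, its membrane partner, -0.02. Herpud1 carries the element ERSE-II, ATTGG and CCACG with 1 base between them, which Dnajb11 also holds (2 of 31 windows, 6.45%, against 0.0444% of genes). It also carries the C/EBP-ATF response element (CARE, TGATGNAA), to which ATF4 binds. The pair is shown because the window of Herpud1 holds motifs of both stress branches.
Herpud1 ERSE-II, chr8:94386372-94386392, plus strand: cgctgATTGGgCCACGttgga
Herpud1 CARE on the opposite strand, chr8:94386312-94386329, plus strand: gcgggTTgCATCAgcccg

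The sensors themselves did not pass in High against NT. Eif2ak3, which encodes PERK, had 0.29 ± 0.13 (edgeR adjusted p = 0.19), from 32.0 ± 0.204 to 39.0 ± 0.990 CPM (SD, n = 2), with both High libraries above both NT libraries. Ern1, which encodes IRE1alpha, had -0.09 ± 0.12 (edgeR adjusted p = 0.70) and Atf6 -0.08 ± 0.12 (0.72). Xbp1 was called where the mRNA of the kinase that splices it had a 95% interval of the fold from 0.782 to 1.13. The core of the unfolded protein response element, TGACGTGG, was in 0 of 31 windows, against 0.714% of genes.

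In the ATF4 branch, the factor itself and its stress partner had values near 0. Atf4 was counted at 500.0, 582.2 and 556.9 CPM in NT, Low and High of K3117 and at 622.4, 669.7 and 632.3 CPM in K3174. Low was highest in both leukemias, K3174 was above K3117 at every label, and High against NT gave 0.09 ± 0.12 (edgeR adjusted p = 0.69). Ddit3, which encodes CHOP, had 13.4, 17.8 and 13.9 CPM in K3117 and 16.1, 18.3 and 17.2 CPM in K3174, so Low was again highest. Its value was 0.08 ± 0.16 (edgeR adjusted p = 0.81) for High against NT and 0.30 ± 0.16 (0.51) for Low against NT. Exons of Ddit3 overlap Mars on the other strand and another annotated gene of the same name on its own strand. The counting's use of strand is not given, so reads in shared stretches cannot be told apart. With Mars, the shared stretch lies between 127296221 and 127296288 of chromosome 10, at the end of Ddit3.

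Trib3, a pseudokinase induced by ATF4 and CHOP that inhibits AKT, was just outside the threshold. It had 15.7, 15.4 and 9.43 CPM in NT, Low and High of K3117 and 20.2, 14.1 and 14.2 CPM in K3174. Both High libraries were below both NT libraries, with Low near NT in K3117 and near High in K3174. High against NT gave 1.53-fold lower (-0.61 ± 0.19, edgeR adjusted p = 0.051), and it passed with DESeq2 (0.049), with DESeq2 size factors (0.046), library sizes alone (0.039), upper quartile factors (0.023) and no filter on low counts (0.0093). It did not pass with limma-voom (0.056), a minimum mean of 5 CPM (0.060) or no block (0.25), and leaving out 1 library gave from 0.0082 without K3117 NT to 0.37 without K3117 High. Ppp1r15a, the phosphatase subunit GADD34 that ends the eIF2alpha signal, had -0.33 ± 0.15 (edgeR adjusted p = 0.16) and Chac1, a glutathione-degrading ATF4 target, -0.37 ± 0.25 (0.37). Within the leukemias, 3 of the 6 regulators of this branch (Trib3, Ppp1r15a and Chac1) were below 0 in both, and the other 3 (Atf4, Atf3 and Ddit3) were above 0 in both. With library sizes alone or upper quartile factors, 3 of the 6 had opposite signs. Trib3, Ppp1r15a, Chac1 and the other uncalled genes Dnajb9 and Atf3 had a 95% interval that reached beyond 1.5-fold, and the intervals of the other 26 of the 31 uncalled genes lay within it.

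Atf3, a factor of the same family that stress and growth signals induce, was the 1 gene of the 34 that edgeR called between the leukemias. It was counted at 6.64, 4.71 and 7.74 CPM in NT, Low and High of K3117 and at 4.46, 3.21 and 4.48 CPM in K3174. Low was the lowest label in both leukemias, and every K3117 library was above every K3174 library. K3174 against K3117 gave -0.64 ± 0.18 (edgeR adjusted p = 0.044), where 9.37% of all genes were called. DESeq2 did not call it (0.11) and called Edem1 instead (-0.34, adjusted p = 0.027), and in edgeR its call was lost without any 1 of the 4 Low and High libraries (0.18 to 0.22). Low against NT gave -0.49 ± 0.22 (edgeR adjusted p = 0.37) and High against Low 0.60 ± 0.22 (0.17). With a mean of 2.42 RPKM it was the least abundant of the 34, with 102 to 221 counts per library.

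Of the other amino acid synthesis genes, Asns, asparagine synthetase, had -0.01 ± 0.11 (edgeR adjusted p = 0.95) and Phgdh, which performs the first step of serine synthesis, -0.02 ± 0.16 (0.96). Phgdh had 340.1, 492.8 and 429.1 CPM in NT, Low and High of K3117 and 470.6, 449.0 and 368.4 CPM in K3174, so High was above NT in the former and below it in the latter. Psat1, the next enzyme of that pathway, was lower in High in both. CARE was in the windows of Herpud1, Atf3, Chac1, Trib3 and Asns (5 of 31, 16.1%, against 4.51% of genes). Matches upstream of the RefSeq start are shown because ATF4 binds this element. The stretch of Asns also overlaps an exon of the GENCODE annotation. The windows of Psat1, Phgdh, Atf4, Ddit3 and Ppp1r15a hold none.
Asns, chr6:7693220-7693237, minus strand: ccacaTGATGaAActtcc
Atf3, opposite strand of the gene, chr1:191183431-191183448, minus strand: cgcacTTgCATCAccaag
Chac1, opposite strand of the gene, chr2:119351044-119351061, plus strand: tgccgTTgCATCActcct

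The translocon genes Sec61b, a subunit of the channel through which proteins enter the ER, and Ssr1, of the associated TRAP complex, had -0.04 ± 0.12 (edgeR adjusted p = 0.89) and -0.10 ± 0.13 (0.68). Ssr1 was counted at 804.6, 822.7 and 832.3 CPM in K3117 and 847.2, 867.0 and 709.8 CPM in K3174. K3174 High was the lowest library, and the groups overlapped.

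In Low against NT, 0 of the 34 genes passed in edgeR, DESeq2 and limma-voom, where 3.34% of all genes were called by edgeR, and 3 had an unadjusted edgeR p under 0.05 (Edem1, Xbp1 and Atf3). In High against Low, 0 passed in all 3 tools against 5.48% of all genes, and 2 had an unadjusted edgeR p under 0.05 (Xbp1 and Atf3). The medians were 0.06 and -0.00. With Low and High averaged against NT, Xbp1 and Edem1 were called (2 of 34, 5.88%, against 12.5%). Psat1 missed the threshold there (-0.33 ± 0.10, edgeR adjusted p = 0.057) and passed in DESeq2 (0.027) and limma-voom (0.039). Contrasts with NT share the NT libraries.

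Other genes of the pathways were taken from 7 lists chosen by function, 153 genes of which 150 were tested. In High against NT, 8 were higher and 11 lower, 12.7% in all, below the 17.3% of all genes. The lists differed in where these calls fell. Other ATF4 targets held 10 of the 19, with 2 higher and 8 lower of 28 tested and a median of -0.25. Without the block 2 of those 28 passed as lower and 0 as higher. Of all 15812 genes, 139 passed as lower and 354 as higher in that fit.

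Aldh1l2, the mitochondrial folate enzyme that oxidises formyl-tetrahydrofolate, fell in the libraries labelled High. It was counted at 8.63, 7.50 and 2.09 CPM in NT, Low and High of K3117 and at 11.5, 9.38 and 2.63 CPM in K3174, with both High libraries far below the other 4 (-2.09 ± 0.21, edgeR adjusted p = 4.4e-05). Vldlr, a lipoprotein receptor, was at 10.6, 5.51 and 1.65 CPM and at 7.97, 1.83 and 0.976 CPM (-2.86 ± 0.32, edgeR adjusted p = 7.9e-05), and lost its call without the block (0.060). Slc1a4, a neutral amino acid transporter, was at 26.1, 24.0 and 12.3 CPM and at 24.2, 18.1 and 11.8 CPM and fell by 1.06 on the log2 scale (edgeR adjusted p = 0.00079). In all 3 genes both High libraries were below both Low and both NT libraries. Atf4 itself had 0.09 and Asns -0.01. Cytoplasmic aminoacyl-tRNA synthetases, also ATF4 targets, had a median of -0.19 with 10 of 12 below 0, 4 at an unadjusted edgeR p under 0.05, and 0 called by edgeR and limma-voom and 1 by DESeq2. CARE was in 5 of their 7 windows and in 6 of 22 windows of the other ATF4 targets. All 6 of the latter were called, Slc1a4, Vldlr, Pycr1 and Got1 as lower and Slc7a11 and Jdp2 as higher. None of the 5 synthetases with CARE was called by edgeR. Of Herpud1, Atf3, Chac1, Trib3 and Asns, which also hold CARE, 0 of 5 were called by edgeR and limma-voom and 1 by DESeq2. Over the whole genome edgeR called 63 of 297 tested genes with CARE (21.2%), against 17.3% of all genes tested.

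Among 25 other ER folding genes, 2 were higher and 3 lower, 20% against 17.3% of all genes, with a median of 0.00. Tmx4, a membrane-bound thioredoxin-like protein, rose from 104.3 and 114.5 CPM in NT (K3117 and K3174) to 171.3 and 257.2 CPM in Low and 254.9 and 316.5 CPM in High (1.37 ± 0.13 for High against NT, edgeR adjusted p = 3.0e-05). Ero1lb, the oxidase that recharges protein disulfide isomerases in secretory cells, rose by 1.20 ± 0.17 (0.00055), from 16.3 and 12.7 CPM in NT to 20.5 and 24.8 CPM in Low and 31.8 and 35.5 CPM in High. Dnajc10, a disulfide reductase that assists degradation, fell by 1.06 on the log2 scale (edgeR adjusted p = 0.00018), from 954.9 and 624.0 CPM in NT to 710.5 and 437.8 CPM in Low and 524.7 and 260.0 CPM in High. It lost its call without the block (0.23). These redox enzymes thus went up and down, while the 4 protein disulfide isomerases of the set had values between 0.04 and 0.24.

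Of 23 other sensors and stress regulators, 4 were higher and 0 lower, a share of 17.4% that is near the 17.3% of all genes, with a median of -0.01. They were Tmbim6, an ER membrane protein that restrains IRE1 (0.70 ± 0.12, edgeR adjusted p = 0.0014), Cebpb, a myeloid transcription factor and partner of ATF4 and CHOP (0.81 ± 0.18, 0.0082), Nfe2l2, which encodes the oxidative stress factor NRF2 (0.52 ± 0.12, 0.011), and Ppp1r15b, a constitutive eIF2alpha phosphatase subunit (0.37 ± 0.12, 0.048). Tmbim6 had 461.5, 591.8 and 786.7 CPM in NT, Low and High of K3117 and 532.5, 642.5 and 829.0 CPM in K3174, so the groups did not overlap. Cebpb had 50.8, 88.3 and 120.4 CPM and 66.4, 69.6 and 88.1 CPM, and Nfe2l2 had 111.9, 126.6 and 167.6 CPM and 91.5, 115.8 and 125.2 CPM, with High above NT in both leukemias. Without the block Cebpb (0.10) and Nfe2l2 (0.17) did not pass, and without K3117 High Nfe2l2 did not (0.22). The 21 other genes of ER-associated degradation had 0 calls by the 3 tools, 2 with an unadjusted edgeR p under 0.05 and a median of 0.14. The 25 other translocon and N-glycan genes had 0 calls by edgeR and limma-voom, 1 lower by DESeq2, 3 with an unadjusted edgeR p under 0.05 and a median of 0.01. The 16 cytosolic and mitochondrial chaperones had 0 by edgeR, 1 lower by DESeq2 and 1 by limma-voom, 2 with an unadjusted edgeR p under 0.05 and a median of -0.06.

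**Figure D5:**
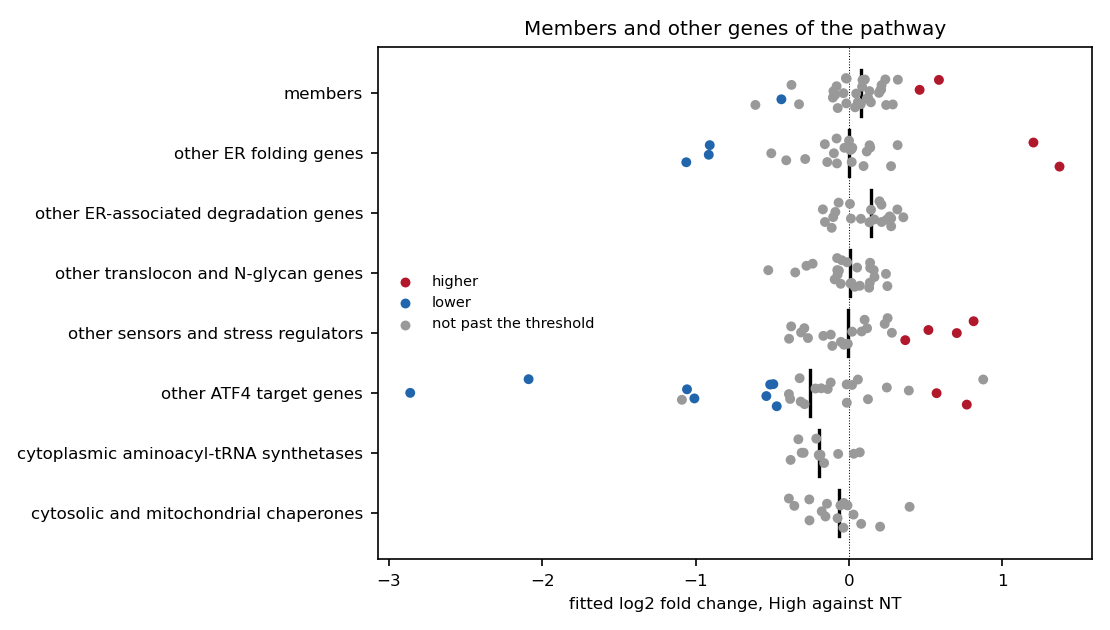
Fitted log2 fold change for High against NT of the 34 genes (top row) and of the genes of 7 other pathway lists, 1 point per gene, coloured where past the threshold, with a black bar at each list's median. The other ATF4 targets reach farthest to the left with a median of -0.25, and the top row lies between -0.61 and 0.59 around 0.08.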

How the data were processed

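The authors deposited raw gene counts, 1 column per library, and these entered the fits unchanged. Per the submitters' processing notes, STAR, STAR-Fusion, kallisto, DESeq2 and mm10 were used, with no roles given. The counting tool, its annotation and strand setting are not given in these sources, so 10 of the 34 genes that share exons with another gene (9 on the opposite strand) are uncertain to that extent. GENCODE M21 symbols (GRCm38, which mm10 denotes) matched 99.5% of IDs, and the 259 others held at most 0.0204% of a library.

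Analyses used R 4.3.3, edgeR 4.0.16 (quasi-likelihood test, TMM factors from 0.973 to 1.04, filterByExpr, all 6 libraries in 1 fit with 2 residual and 9.38 prior degrees of freedom, common biological coefficient of variation 12.0%), DESeq2 1.42.0 and limma 3.58.1 (voom). Standard errors are the fold change over the root of its F statistic. Differences within a leukemia are in log2 CPM with a prior count of 2, and RPKM uses the union of a gene's exons. The fit was tested on simulated data. Every pair of libraries differed by more than sampling noise, with a chi-square of at least 26.9 for each degree of freedom.

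The leukemia was a block because titles give each K number to every label. Across genes, the deviations of same-numbered libraries from group means had correlations of 0.57 (NT and Low), 0.44 (NT and High) and 0.64 (Low and High). Alternatives were no block, DESeq2 size factors, library sizes alone, upper quartile factors, no filter, a mean of at least 5 CPM, DESeq2, limma-voom and leaving out each library.

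The 34 genes, their roles and the other lists were chosen with earlier results of these data known. Named genes were those called in any contrast, the most counted of each role, Hspa5, Xbp1, Atf4 and Ddit3, and up to 3 called genes with the smallest p of each other list. Ppp1r15b, Trib3 and other genes outside this rule were named after these were seen. Promoters are RefSeq windows of 300 bases.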

Additional observations from a re-analysis of the deposited data

Results flagged for a closer look

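Several levels moved in opposite directions in the 2 leukemias between NT and High, and none of these differences was tested, since each leukemia has 1 library per label. The summed level of the 11 chaperones was higher in High by 1311 CPM in K3117 and fell by 576.5 CPM in K3174. For the 6 ATF4 branch regulators the differences were 43.3 and -6.82 CPM, for the translocon genes 32.8 and -148.9 CPM, and for all 34 genes 2222 and -575.3 CPM. Taken singly with TMM scaling, 0 of the 6 regulators had opposite signs, so their sum mixes genes that rose in both leukemias with genes that fell in both. In log2 CPM, Hspa5 differed by 0.23 and -0.12, Calr by 0.28 and -0.19 and Ssr1 by 0.05 and -0.26. With library sizes alone or upper quartile factors, both translocon genes were lower in High in both leukemias.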

How the results depend on the processing

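Of the 34 genes, 3 passed in High against NT, and 3 or 4 passed with 7 of the 8 other settings that kept all libraries. Without the replicate block 0 passed, also with Low and High averaged against NT (2 with the block). Leaving out 1 library gave 1 to 8 for High against NT, 0 to 2 for Low against NT, 0 to 1 for High against Low, 0 to 5 for the mean against NT and 0 to 2 for K3174 against K3117. The 8 came without K3117 NT, which added Dnajb9, Hyou1, Trib3, Ppp1r15a and Phgdh. The count of 1 was Xbp1 without K3117 High and Trib3 without K3174 High. For K3174 against K3117, 2 genes passed with library sizes alone, upper quartile factors, no filter and limma-voom (1 as reported), Edem1 as well as Atf3.

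Over all genes tested, no block gave 493 calls for High against NT, 0 for Low against NT, 0 for High against Low and 89 for the mean against NT. No filter gave 1071 for Low against NT and 1425 for High against Low, and a mean of at least 5 CPM gave 343, 522 and, for K3174 against K3117, 849. Leaving out 1 library gave 1927 to 4394 for High against NT, 144 to 1483 for Low against NT, 335 to 1982 for High against Low, 1417 to 3302 for the mean against NT and 829 to 2642 for K3174 against K3117. The causes were not tested. Of the calls in High against NT, 57.8% were higher, 49.1% with library sizes alone and 43.9% with upper quartile factors, under which the median of the 34 was -0.01. No called gene reversed. With 2 libraries per group and 2 residual degrees of freedom, changes of about 1.2-fold, as fitted for P4hb, Pdia3 and Eif2ak3, did not pass at this depth, and for genes under 10 CPM such as Atf3 and Chac1 the intervals were wider.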
